A study of Mus musculus with 99 samples.

Results

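The large-conductance, calcium- and voltage-activated potassium (BK) channel was followed through 9 genes: Kcnma1, which encodes the pore-forming alpha subunit, the beta subunit genes Kcnmb1, Kcnmb2, Kcnmb3 and Kcnmb4, and the gamma subunit genes Lrrc26, Lrrc38, Lrrc52 and Lrrc55. They were taken by name from a table of 55291 gene symbols, and all 9 were found there. The table holds read counts from full-length cDNA of 99 single hair cells from the cochlea of C57BL/6 mice. The first group was 32 wild-type outer hair cells (OHCs) of postnatal day 30 from Slc26a5-CreER/+; Ai9/+ mice, which carry an inducible Cre in the prestin gene, active in OHCs, and a tdTomato reporter. The second was 67 converted inner hair cells (cIHCs) of postnatal day 42 from Slc26a5-CreER/+; Rosa26Tbx2/+ mice, in which the same Cre switches on the transcription factor Tbx2 in OHCs, which per the labels turn into inner hair cells (IHCs). Both groups carry the Cre and were picked by hand for red fluorescence. The groups differ in age as well as in genotype, and the parts of these in any difference cannot be told apart. The protocol text speaks of endogenous IHCs and of iOHCs, whereas titles and genotypes give OHCs and cIHCs, which were followed here. Levels were therefore not set against those of endogenous IHCs, and 17 further OHCs of an earlier study that the submitters mention were not analysed here.

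BK channels open when depolarisation and calcium act together, and the potassium that then leaves the cell drives the membrane back. Each channel holds 4 alpha subunits; beta and gamma subunits are optional partners that set inactivation, calcium sensitivity and the voltage at which the channel opens. In mature IHCs a fast BK current keeps the receptor potential quick and appears around the onset of hearing. In OHCs BK channels sit mainly at the base, near the efferent synapse. LRRC52 is a gamma subunit of the Slo family that has been described both with BK and with the sperm channel Slo3.

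Every title stands for a single cell and no label ties cells to mice. A group therefore counted as 1 sample, nothing was tested, and the spread given is between cells. Total counts ran from 5656512 to 9287413 in OHCs and from 4677682 to 13792672 in cIHCs, and the median number of genes with reads was 6068.5 and 8546. Tbx2 had 3 counts in all OHCs and 112.7 CPM or more in each cIHC, where CPM is counts per 1000000 counts of the cell. The 7 hair cell markers had reads in both groups. The summed level of 8 OHC markers was 55055 CPM in pooled OHCs and 1022 CPM in pooled cIHCs, and that of 8 IHC markers 999 and 7203 CPM, although Rprm, Slc7a14 and Shtn1 were at 0 in OHCs. Intervals below are at 95%. Those of CPM and ratios cover the counting of reads only, and PCR copies of 1 molecule cannot be told apart. Those of shares cover the counting of cells only, as if cells were independent draws, and hold no spread between mice.

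The data show 3 kinds of member. Kcnma1 and Lrrc52 were present in both groups, with pooled levels less than 2-fold apart. Kcnma1 was lower in cIHCs, at 129 against 170.4 CPM in OHCs. Lrrc52 was at much the same level, at 91.4 and 87.6 CPM. Kcnmb2 had reads in a minority of cIHCs and in no OHC. The other 6 were absent, or were carried by a few cells: Kcnmb1 and Lrrc26 had no read in any of the 99 cells. Of the 7 members with a ratio (more than 3 counts in a group), 2 were past a 2-fold difference upward in cIHCs and 3 downward, against 42.6% and 18.8% of all 23306 genes with a ratio, so a higher level in cIHCs is common in this table. The median log2 ratio of cIHC over OHC was -0.40 over the 7 members and 0.58 over all genes.

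The start of Lrrc52, the member with the most reads per length, and that of Kcnmb2, which had the most cIHCs with reads among the 4 members without a read in OHCs, are shown because the groups differ by a T-box factor. Both stretches come from RefSeq on GRCm38.p6, are read 5′ to 3′ on the gene's strand, end at or before the first annotated exon, and have each CG pair in capitals.
Lrrc52, chr1:167466781-167467030, minus strand: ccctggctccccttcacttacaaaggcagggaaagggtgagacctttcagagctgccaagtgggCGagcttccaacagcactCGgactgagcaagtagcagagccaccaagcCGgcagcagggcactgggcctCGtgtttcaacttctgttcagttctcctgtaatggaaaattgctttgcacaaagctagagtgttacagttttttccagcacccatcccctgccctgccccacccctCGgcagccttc
Kcnmb2, chr3:31902453-31902506, plus strand: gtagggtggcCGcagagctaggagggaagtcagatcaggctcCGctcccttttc
The T-box core GGTGTGA was searched on both strands in the 300 bases around the start of all 9 members, and 1 held it, Lrrc38. Of 32851 such windows of all genes 3.98% held it. The longer site AGGTGTGA, which contains the core, was in 0 of the 9 and in 1.28% of all. No match says only that these letters are not in this window. The windows of Lrrc52 and Kcnmb2 held 6 and 9 CG pairs against a median of 7 over all windows, while those of Kcnma1 and Kcnmb4 held 36 and 48.

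Kcnma1 lies at chr14:23289431-24014491 on the minus strand (GENCODE M21, GRCm38, the build the submitters name as mm10) and has 38 annotated transcripts. In OHCs its lowest level was 0, its median 108.0 CPM and its highest 651 CPM. In cIHCs the lowest was 4.27 CPM, the median 117 CPM and the highest 411 CPM. The groups overlap over nearly their whole range, and the highest and the lowest cell of all are both OHCs. Pooled over cells, Kcnma1 had 170.4 CPM in OHCs (168.7 to 172.0) and 129 CPM in cIHCs (128 to 130.1), a log2 ratio of -0.40 (-0.42 to -0.38). The 10041 genes that reached 10 CPM in either group had a median log2 ratio of 0.25, and Kcnma1 lay at -0.65 from it. The medians per cell lie the other way, with a log2 ratio of 0.11. In 49.9% of the 2144 pairs of 1 cIHC and 1 OHC the cIHC was higher. Thus on plain CPM the direction depends on whether sums or medians are compared. The ratio of 0.11 also lies below the median of 0.25 of those genes. It is smaller in size than the shift of -0.19 by TMM scaling, which would put it below 0 like the sums. The SD between cells was 179.6 CPM in OHCs and 91.6 CPM in cIHCs. It describes single cells and is not the error of a pooled level.

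Kcnma1 was more unequal among OHCs than among cIHCs. Its middle cells, from the lower to the upper quartile, ran from 25.4 to 283 CPM in OHCs and from 55.7 to 173 CPM in cIHCs. The coefficient of variation was 1.04 in OHCs and 0.71 in cIHCs, without a test of the difference. Reads were found in 31 of 32 OHCs (96.9%, 83.8 to 99.9) and in 67 of 67 cIHCs; at 10 CPM or more there were 28 and 65. Genes of the same pooled level, within 0.25 on the log2 scale, had reads in a median of 90.6% of OHCs (422 genes) and 97.0% of cIHCs (666 genes). Kcnma1 was thus found in as large a share of cells as its level goes with elsewhere. Its exons overlap those of 4930519K11Rik on the other strand, which had 0 counts in OHCs and 1 in cIHCs.

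**Figure D1:**
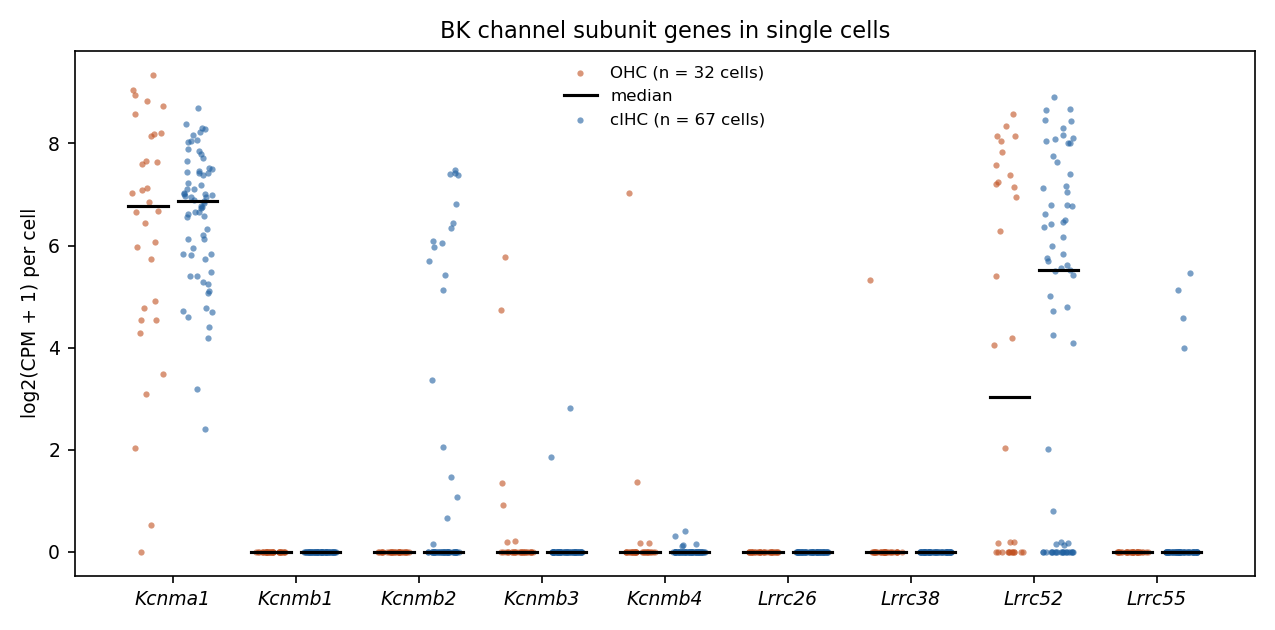
Level of each BK subunit gene in each cell, as log2(CPM + 1), for 32 OHCs and 67 cIHCs; each point is 1 cell and the black line is the group's median. Kcnma1 fills both groups, Lrrc52 ranges in each group from cells with no reads to cells with many, and Kcnmb2 appears in cIHCs alone.

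Lrrc52, a gamma subunit that shifts channel opening to less depolarised voltages, was the accessory subunit with the most reads per length in both groups (chr1:167445669-167466780, minus strand). In OHCs its lowest level was 0, its median 9.35 CPM and its highest 380.0 CPM. In cIHCs the lowest was 0, the median 45.2 CPM and the highest 481 CPM. Both groups hold cells without a read and cells above 100 CPM, 12 of 32 OHCs and 21 of 67 cIHCs, and they overlap over the whole range. The pooled levels were 87.6 CPM (86.4 to 88.8) and 91.4 CPM (90.6 to 92.2), a log2 ratio of 0.06 (0.04 to 0.08), which lies at -0.19 from the median of those 10041 genes. The log2 ratio turns to -0.13 under TMM scaling and to -0.14 under median-of-ratios scaling, and that of the medians per cell was 2.27. In 47.4% of pairs the cIHC was higher and in 11.2% the cells were equal.

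OHCs fell mostly into those with much Lrrc52 and those with none: 12 were above 100 CPM, 4 from 10 to 100 CPM, and 4 had reads below 10 CPM. Levels in cIHCs were more graded: 21 were above 100 CPM, 20 from 10 to 100 CPM, and 6 had reads below 10 CPM. Lrrc52 had reads in 20 of 32 OHCs (62.5%, 43.7 to 78.9) and in 47 of 67 cIHCs (70.1%, 57.7 to 80.7). Among the cells with reads the medians were 144 and 87.3 CPM. Genes of its pooled level had reads in a median of 75% of OHCs, with quartiles of 65.6% and 81.2%, and in 92.5% of cIHCs, with quartiles of 88.1% and 97.0%. Lrrc52 was below the lower quartile of these genes in both groups, and further below it in cIHCs. After each cell was thinned to 5770000 reads, the shares were 58.6% of 29 OHCs and 68.2% of 66 cIHCs.

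Levels of different genes can be set side by side only per length of exon, as the pooled count per kilobase scaled to a sum of 1000000 over genes (TPM). On this scale Lrrc52 had 149 TPM in OHCs and 196 TPM in cIHCs, whereas Kcnma1 had 19.5 and 18.7 TPM. Lrrc52 ranked 696th of 19309 genes with reads in OHCs and 765th of 23631 in cIHCs, and Kcnma1 4103rd and 5395th. Kcnmb2 followed in cIHCs at 15.1 TPM. With the longest transcript in place of all exons, a choice made after seeing the data (the exons of Kcnma1 add up to 17.0 kb), the values were 124 and 158 TPM for Lrrc52 and 22.9 and 21.1 TPM for Kcnma1. The order of these genes was then the same, with Kcnmb2 at 13.0 TPM in cIHCs. Which of the 38 transcripts of Kcnma1 a cell uses was not analysed here, and it sets the length that applies.

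Kcnmb2 encodes the beta2 subunit, whose N-terminal end plugs the open pore and makes BK currents inactivate (chr3:31902507-32200180, plus strand). None of the 32 OHCs had a read of it. A limit of 3 cells of 32 for a count of 0 is 9.38%, and the exact interval ends at 10.9%. In cIHCs its lowest level and its median were 0 and its highest was 177 CPM. It had reads in 19 of 67 cIHCs (28.4%, 18 to 40.7), of which 6 were below 10 CPM, 8 from 10 to 100 CPM and 5 above. Most cIHCs thus had no read, as in OHCs, and 13 cells reached 10 CPM. Reads of Kcnmb2 were more frequent among cIHCs of high title number.

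The pooled level of Kcnmb2 in cIHCs was 19.2 CPM (18.8 to 19.6), and its log2 ratio was at least 10.60 against a floor of 3 counts over the OHCs. The highest cell held 15.3% of the counts, and without it the bound was 10.35. Genes of its pooled level had reads in a median of 49.3% of cIHCs, with a lower quartile of 41.8%, and Kcnmb2 lay below that quartile. Cells with Xist reads and cells with Y-linked reads both held it: 16 of 55 and 3 of 12 cIHCs, against 0 of 4 and 0 of 24 OHCs. Thinning left it in 28.8% of 66 cIHCs. The 7 smooth muscle and pericyte markers, genes of cells known for BK channels, summed to 2.36 CPM in cIHCs (0 to 66.7 per cell, 6 of 7 with reads) and 0.0124 CPM in OHCs (0 to 0.152, 2 of 7), with Acta2 at 0 in both. The 6 spiral ganglion neuron markers summed to 528 and 256 CPM, with Prph at 0 in both. The 7 blood and macrophage markers summed to 53.8 CPM in cIHCs (0 to 337 per cell, 6 of 7 with reads) and 9.46 CPM in OHCs (0 to 127, 5 of 7), with C1qa at 0 in both. The 8 supporting cell markers summed to 25.1 CPM in cIHCs (0 to 866 per cell, 6 of 8 with reads) and 29.9 CPM in OHCs (0 to 889, 6 of 8). The 5 glia markers summed to 8.19 CPM in cIHCs (0 to 119 per cell, 4 of 5 with reads) and 14.3 CPM in OHCs (0 to 174, 5 of 5). The part of other cells in the result was not tested.

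**Figure D2:**
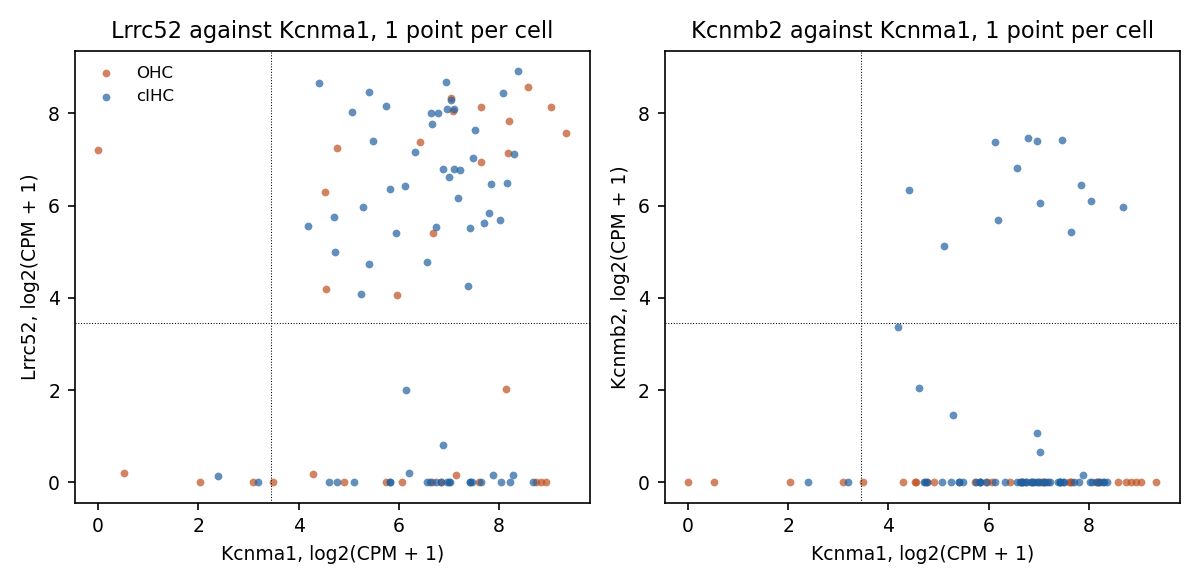
Lrrc52 (left) and Kcnmb2 (right) against Kcnma1, both axes as log2(CPM + 1), with 1 point per cell for 32 OHCs and 67 cIHCs; dotted lines mark 10 CPM. All 13 cIHCs with Kcnmb2 at 10 CPM or more also had Kcnma1 there, and no OHC leaves the zero line for Kcnmb2.

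The remaining beta subunits were nearly absent from both groups. Kcnmb1 encodes beta1, the smooth muscle subunit that raises calcium sensitivity (chr11:33963013-33973641, plus strand), and had 0 counts in 32 OHCs and 67 cIHCs, where 3 of n cells gives limits of 9.38% and 4.48% and the exact intervals end at 10.9% and 5.36%. Kcnmb4 encodes beta4, the neuronal subunit that makes BK resist iberiotoxin (chr10:116417861-116473878, minus strand). Its lowest level and its median were 0 in both groups, and its highest was 130 CPM in OHCs, where 4 cells had reads, and 0.321 CPM in cIHCs, where 5 cells did. A single OHC, number 18, held 98.8% of the 937 OHC counts, and the next highest had 1.56 CPM. The log2 ratio of -7.87 (-9.0 to -6.94) became -2.32 without the highest cell of each group, so its size rests on this 1 cell. Among cells with Y-linked reads it was at most -0.70. The antisense genes Kcnmb4os1 and Kcnmb4os2, whose exons overlap those of Kcnmb4, had 0 counts in both groups.

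Kcnmb3, which encodes the beta3 subunit, lies 271 kb from Kcnmb2 with 2 protein-coding genes between them (chr3:32471588-32492231, minus strand). Its lowest level and its median were 0 in both groups, and its highest was 54 CPM in OHCs and 6.08 CPM in cIHCs. Reads were found in 6 of 32 OHCs (18.8%, 7.21 to 36.4) and in 2 of 67 cIHCs (2.99%, 0.364 to 10.4). The same OHC number 18 held 60% of the 642 OHC counts, and the cIHCs had 76 counts in all. The log2 ratio was -4.25 (-4.61 to -3.90), and -4.11 without the highest cells, and 2 OHCs but no cIHC reached 10 CPM. OHC number 18 had 0 CPM of the supporting cell, glia, blood and macrophage and smooth muscle and pericyte markers, its spiral ganglion neuron markers summed to 246 CPM, near the OHC median of 232 CPM, and its OHC markers to 49412 CPM, within the range of 26330 to 73457 CPM over all OHCs.

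Among the other gamma subunits, Lrrc26 (chr2:25289915-25291180, plus strand), known from secretory epithelia, had no read in any cell. Lrrc38 (chr4:143349757-143371032, plus strand) had 353 counts in 1 OHC, at 39 CPM, and none in the other 31 or in any cIHC. Its ratio of at most -8.05 thus describes 1 cell, and without that cell no ratio can be given. Lrrc55 (chr2:85162334-85197197, minus strand), a gamma subunit known from the nervous system, had reads in 4 of 67 cIHCs (5.97%, 1.65 to 14.6) and in no OHC. For 0 of 32 OHCs the limit is 9.38% and the exact interval ends at 10.9%, both above the cIHC share. A difference in the share of cells is thus not shown. The 4 cIHCs had 14.8, 22.9, 33.8 and 42.8 CPM. The log2 ratio was at least 7.25, or 6.48 without the highest cell, a bound that covers reads and not cells. In 1 of the 4, with 294 counts of Lrrc55, the overlapping gene Gm13713 on the other strand had 206 counts; strand use in the counting is not given in the sources used here, so that cell is uncertain. No other cell had a count of Gm13713.

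How the subunits combined in single cells was described at 10 CPM or more. Kcnma1 with Lrrc52 and no other member was the most frequent combination, in 13 of 32 OHCs (40.6%) and 35 of 67 cIHCs (52.2%). Kcnma1 alone came next, in 12 OHCs (37.5%) and 14 cIHCs (20.9%). Sets with Kcnmb2 were found in cIHCs: 7 had Kcnma1 with Kcnmb2, 5 had Lrrc52 in addition, and 1 had Lrrc55 in addition. Of the 41 cIHCs with Lrrc52, 5 had Kcnmb2, and of the 26 without it, 8 did. Both genes also varied with the title number of cIHCs, and its part in this was not tested. No member reached 10 CPM in 3 OHCs and 2 cIHCs, and 1 OHC had Lrrc52 without Kcnma1, which had no read in that cell. These are transcripts in a cell, not subunits of 1 channel.

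**Figure D3:**
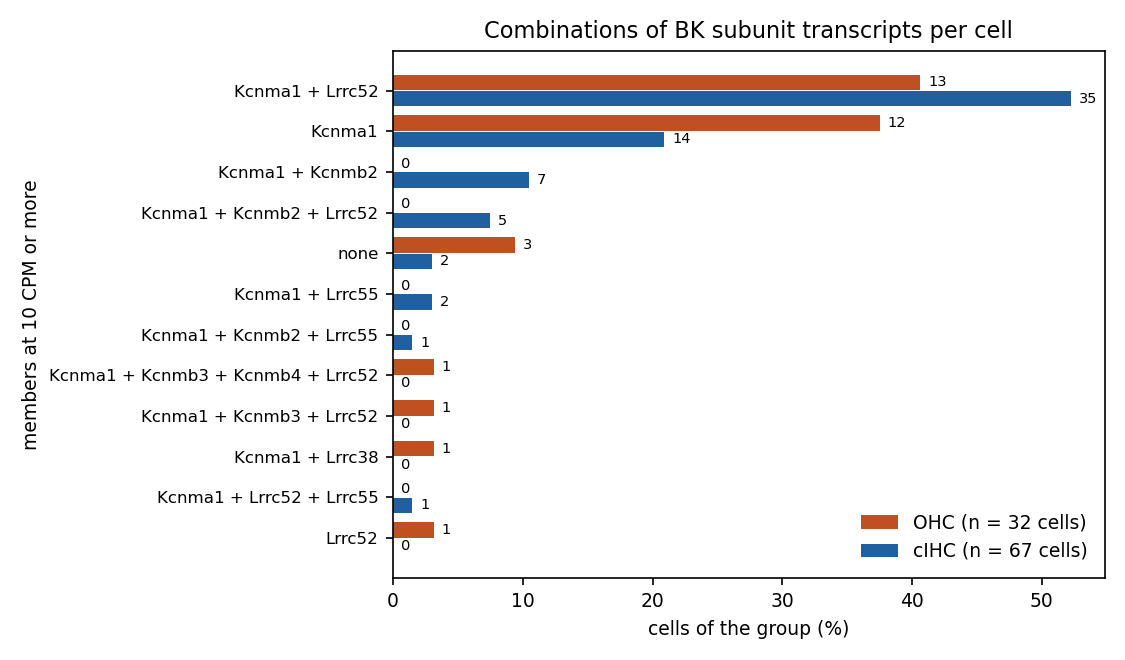
Share of cells of each group, in percent, by the set of BK subunit genes that reach 10 CPM; numbers beside the bars are cells, of 32 OHCs and 67 cIHCs. Kcnma1 with Lrrc52 leads in both groups, with 13 OHCs and 35 cIHCs, and the sets with Kcnmb2 hold cIHCs alone.

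Across cells, Kcnma1 and Lrrc52 were weakly related: Spearman's rho of log2(CPM + 1) was 0.28 over 32 OHCs and 0.04 over 67 cIHCs. In cIHCs the coefficient was 0.06 between Kcnma1 and Tbx2 and 0.11 between Kcnmb2 and Tbx2. Lrrc52 was lower in cIHCs with more Tbx2, with a rho of -0.40, and higher in those with more Ocm, the OHC gene for the calcium buffer oncomodulin, with a rho of 0.44. In OHCs the rho of Lrrc52 with Ocm was of the other sign, at -0.46. Depth moved with these values: in cIHCs the rho with the total count was -0.35 for Lrrc52, 0.32 for Tbx2 and -0.20 for Ocm, and its part was not tested. Cells without Lrrc52 reads were also more frequent among cIHCs of high title number, and the part of this was not tested either. The cells of a group share genotype, age and the effect of depth, and no p is given because cells are not replicates.

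**Figure D4:**
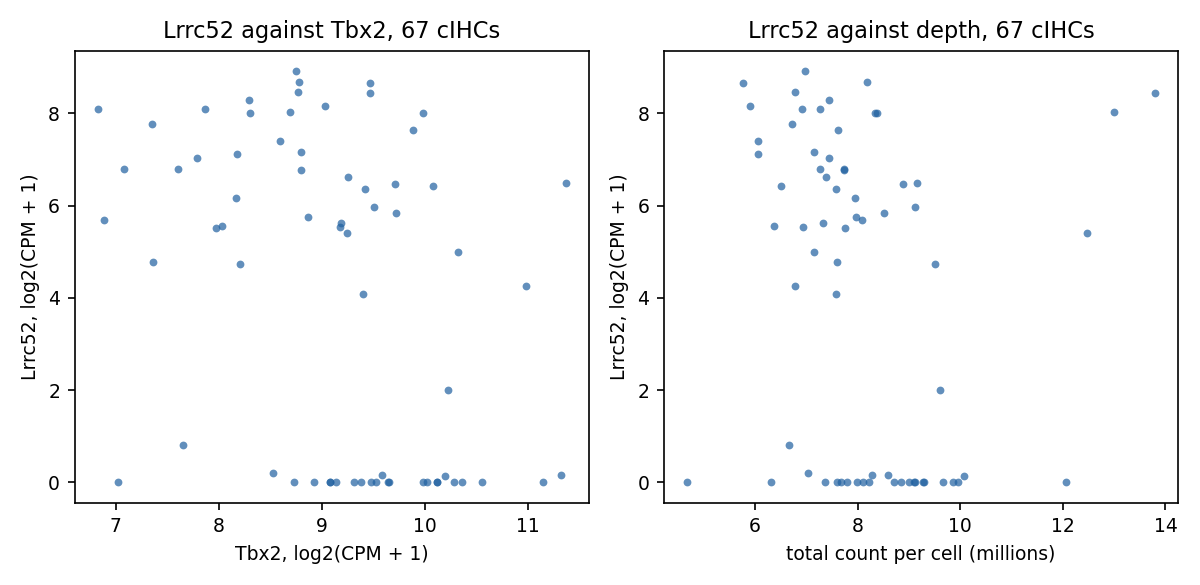
Lrrc52 as log2(CPM + 1) in each of 67 cIHCs, against Tbx2 as log2(CPM + 1) (left) and against the total count of the cell (right). Lrrc52 tended to be lower at higher Tbx2, with a rho of -0.40, and at higher total counts, with a rho of -0.35.

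The 5 genes whose levels were most like Kcnma1 were named in each group. Such lists hold the highest of all coefficients compared, so they lie above the 95th percentile by how they were picked. Whether they exceed what unrelated genes would give was not tested. Over 32 OHCs and 4694 genes they were Kmt2a, Mob2, Btf3l4, Gm6558 and Epm2aip1, with rho from 0.52 to 0.55, where the 95th percentile of those genes was 0.28. Over 67 cIHCs and 7284 genes they were Nptn, Hsd17b4, Barhl1, Yeats2 and Rnf103, with rho from 0.42 to 0.52 and a 95th percentile of 0.21. Nptn encodes neuroplastin, a cell adhesion protein and partner of plasma membrane calcium pumps that hearing needs, and had a rho of 0.52 in cIHCs and 0.25 in OHCs. Barhl1, a transcription factor of hair cells, had 0.45 in cIHCs and -0.10 in OHCs. The 5 genes picked in OHCs had rho from -0.24 to 0.18 in cIHCs. By Pearson's r, 2 of the 5 genes for OHCs and 3 of the 5 for cIHCs were again among the first 5. For Lrrc52 in cIHCs the list was Hsp90aa1, Gm6558, Ttc7, Gpx2-ps1 and Col27a1, with rho from 0.57 to 0.62. Hsp90aa1, which encodes an inducible heat shock protein, had a rho of -0.43 with the total count.

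Genes that act with BK channels were read from lists by the same 2-fold rule. Of 9 genes for calcium sources, 4 were higher and 5 lower in cIHCs, against 42.6% and 18.8% of all genes with a ratio, and their median log2 ratio was -1.07 against 0.58. Cacna1d, the Cav1.3 pore that feeds BK in hair cells, had a median of 735 CPM in OHCs (75.7 to 1401) and 280.1 CPM in cIHCs (4.50 to 1076), a pooled log2 ratio of -1.18. The listed genes of its partner subunits were higher, and genes of further such subunits were not in the list. Cacnb2, a beta subunit of that channel, had a ratio of 1.39 and medians of 0.062 and 46.6 CPM. Cacna2d2 had a ratio of 4.96, with reads in 2 of 32 OHCs and 56 of 67 cIHCs. At 10 CPM or more, Cacna1d stood beside Kcnma1 in 28 of 32 OHCs and 64 of 67 cIHCs. Cacna1d itself reached that level in 32 of 32 OHCs and 66 of 67 cIHCs. The overlap thus follows from its presence in nearly every cell and shows no pairing of these genes.

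The efferent receptor genes, whose calcium can open BK in OHCs, were lower in cIHCs: Chrna9 had 823 and 224 CPM pooled, a log2 ratio of -1.88, and Chrna10 507 and 8.67 CPM, a ratio of -5.87. Ryr2, a calcium release channel of internal stores, had 31.9 and 0.579 CPM, a ratio of -5.78, with reads in 24 of 32 OHCs and 5 of 67 cIHCs. Ryr1 and Ryr3 had ratios of 1.24 and -1.07, and 1 OHC held 58.4% of the OHC counts of Ryr1. Cacna1b had a ratio of 4.86, resting on 28 counts in OHCs. The exons of Cacna1d, Cacnb2, Cacna2d2, Ryr1, Ryr3 and Chrna10 overlap those of a gene on the other strand, so their values are uncertain to that extent.

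The other lists were short. Of 3 Slo relatives, Kcnu1, the Slo3 channel of sperm, had 7.18 CPM in cIHCs with reads in 11 of 67 cells and none in OHCs, a log2 ratio of at least 9.18. At 10 CPM or more it was found in 9 cIHCs, 2 of them with Lrrc52 and 2 with Kcnmb2. Kcnt1 had a ratio of -4.38, with all of its 37 OHC counts in 1 cell, and Kcnt2 had 1 count in all. Of 6 partners and modulators, 3 were higher, 1 lower and 1 between, with a median log2 ratio of 1.16, against the same 42.6% and 18.8% of all genes. Crbn, the cereblon protein that holds BK channels back in the cell, had pooled levels of 36.4 and 126 CPM, a ratio of 1.79, and Prkaca, the catalytic subunit of protein kinase A, had 42.2 and 94.1 CPM, a ratio of 1.16. Fmr1, whose product binds beta4, had 88.1 and 44.1 CPM, a ratio of -0.998, just inside the threshold. Under TMM, tried for the listed genes after seeing the data, Prkaca was inside the threshold at 0.96 and Fmr1 past it at -1.19, and no other listed gene changed its call. The exons of Crbn, Fmr1 and Kcnn2 overlap those of other genes. Prkg1 had a ratio of 6.26 (4.70 to 8.54) against 3 OHC counts, Lingo2 a ratio of at most -4.98 and Lingo1 3 counts in all, each with reads in 5 or fewer cells of a group. Of 3 other potassium channels, 2 were lower and none higher, against 18.8% and 42.6% of all genes with a ratio. Their median log2 ratio was -2.89 against 0.58 over all genes. Kcnn2, the SK2 channel, had 253 and 34.1 CPM, a ratio of -2.89. Kcna10, a voltage-gated channel of hair cells, had 2191 and 2480 CPM, a ratio of 0.18 that turns to -0.014 under TMM.

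**Figure D5:**
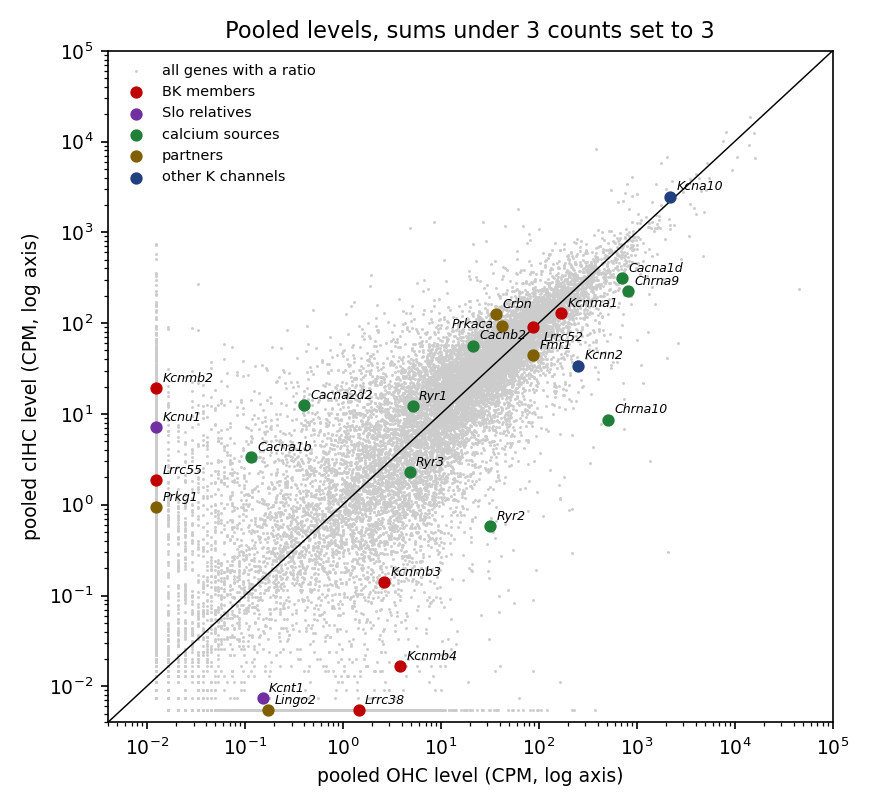
Pooled level in cIHCs against pooled level in OHCs, both in CPM on log axes, for 23306 genes (grey) and for the BK members and most listed genes (coloured); sums under 3 counts are set to 3 and the line marks equal levels. Kcnma1 and Lrrc52 lie on or near the line, Kcnmb2 and Lrrc55 at the OHC floor, and Kcnmb3, Kcnmb4 and Lrrc38 below the line.

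The groups also differed in Xist and Y-linked reads at 10 CPM. Cells that reached this level for Xist alone were 4 OHCs and 55 cIHCs. Those that reached it for Y-linked reads alone were 24 OHCs and 12 cIHCs. The rest of the 32 OHCs reached it for both or for neither and are in no subset. The subsets hold 1980 and 13122 of the 21198 OHC counts of Lrrc52, so its ratios within them leave out part of these counts. The ratio of Kcnma1 was -1.15 within the first and -0.26 within the second, and that of Lrrc52 was 0.48 and -0.14. For Lrrc52 the direction thus differs between the subsets, and the first rests on 4 OHCs, of which 2 had reads. For Kcnmb2 the log2 ratios were at least 7.56 and 9.98. In the first subset 16 of 55 cIHCs and 0 of 4 OHCs had its reads, and 4 OHCs are too few to show a direction. OHC number 18 is 1 of the 4 OHCs with Xist reads, so all but 11 of the OHC counts of Kcnmb4 fall in that subset.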

How the data were processed

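Single hair cells were picked and made into full-length cDNA with the Smart-Seq HT kit, per the labels' protocols. The authors deposited 1 table of raw read counts per gene and cell, whole numbers with different totals per cell. HISAT2 2.2.1, StringTie 2.2.1 and featureCounts 2.0.1 and the build mm10 are named in the submitters' processing notes; strand setting, annotation and filters are not given in the sources used here. All 99 cells were used, grouped by title; 0 columns belong to no sample, 0 pairs of columns are identical, and no doublet filter was applied because cells were picked singly.

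Counts were summed per group and divided by the group's total (242054710 and 544012348 counts) to give pooled CPM. A difference is the log2 of the pooled CPM in cIHCs divided by that in OHCs, with no test, since a group is 1 sample. A ratio was given where a group had more than 3 counts, and a sum of 0 was set to 3 counts as a bound. Intervals are exact: Poisson for CPM, conditional binomial for ratios, Clopper-Pearson for shares; the limit beside a count of 0 cells is 3 of n. The median ratio of genes with at least 10 CPM moved by -0.19 with TMM factors and by -0.20 with median-of-ratios factors. Exon lengths and overlaps came from GENCODE M21, which gave a length for 96.2% of symbols.

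The members and lists were chosen with earlier results of these data known. Named genes are the members, the listed genes and the 5 genes of highest rho with Kcnma1 in each group and with Lrrc52 in cIHCs, among genes averaging 10 CPM or more with reads in at least 50% of the group's cells. A value of 1 listed potassium channel gene is not reported here. The ratio step was tested on simulated data. Python 3.11.15, numpy 2.4.6, pandas 2.3.3, scipy 1.17.1, matplotlib 3.10.9, R 4.3.3 and edgeR 4.0.16 (TMM alone) were used.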

Additional observations from a re-analysis of the deposited data

How the results depend on the processing

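The Kcnma1 ratio of -0.40 stayed below 0 under 10 of 11 alternatives and the Lrrc52 ratio of 0.06 stayed above 0 under 7 of 11; most move either value by more than its counting interval, which is narrow. In that order, the values were 0.11 and 2.27 with the median of CPM per cell, -0.33 and 0.13 when each group lost its highest cell, -0.59 and -0.13 with TMM factors, -0.60 and -0.14 with median-of-ratios factors, -0.44 and 0.0171 with totals without mitochondrial genes, -0.48 and -0.0169 with totals without the 13 most abundant genes, -0.37 and 0.28 without the cells with the fewest genes, -1.15 and 0.48 among cells with Xist reads, -0.26 and -0.14 among cells with Y-linked reads, and -0.43 and 0.16 in thinned cells. The mean of CPM per cell gave -0.42 and 0.0923. Kcnmb2 and Lrrc55 stayed 2-fold or more higher in cIHCs, and Kcnmb3 and Lrrc38 2-fold or more lower, under each alternative that gave a value. Changed scaling or totals shift all genes alike by far less than these ratios, so they could not change these calls. Lrrc38 gave a value only where its single OHC with reads was kept. Among cells with Xist reads, Kcnmb2 and Lrrc55 rest on 4 OHCs without reads. Kcnmb4 stayed lower but was at most -0.70 among cells with Y-linked reads, where 11 OHC counts are left and no cIHC count. No median of CPM per cell could be used for these 5 genes because a median is 0. No paired analysis was possible because no label pairs cells of the groups, and no result comes from a test. What the title numbers stand for beyond a count of cells is not given. Among cIHCs, those of high title number more often had Kcnmb2 reads and more often lacked Lrrc52 reads. The part of an order of preparation in this was not tested. At low levels, a cell without reads may still hold the transcript.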
